A study of Mus musculus with 6 samples.

Results

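Ephrins and their Eph receptors, and Slits and their Robo receptors, are families of guidance molecules, described here in the medial prefrontal cortex of young mice. The 32 genes were taken by symbol from the 19943 genes that the deposited tables list: 5 A-type ephrins, 3 B-type ephrins, 9 A-type and 5 B-type Eph receptors, 3 Slits, 4 Robos and 3 srGAPs (Slit-Robo GTPase-activating proteins). No measured value entered this choice. The tissue came from C57BL/6 mice labelled 6 weeks old, while the text on the design gives 7 weeks. One group, with 3 libraries, was labelled control with no housing stated, and the other, also with 3 libraries, had been isolated socially for 3 weeks after weaning. No genetic change is named for either group, and the labels do not say whether each library was 1 animal. The p-values therefore measure only the spread between these libraries, which may be technical. By its title, the series concerns expression in this region after early isolation.

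Ephrins are ligands held on the cell surface, A-type by a lipid anchor and B-type by a transmembrane segment, and they signal on contact into the receptor-bearing cell and, in reverse, into their own. Slits are secreted and act through Robos, and srGAPs bind the inner end of Robos and switch off small GTPases that move the actin skeleton. During development these molecules repel or sort axons and migrating neurons, and in the mature cortex and striatum several act at synapses and dendritic spines.

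Depth was even, with 18226448 to 18606573 expected counts per library, where an expected count is the estimated number of reads of a gene. Markers of cortical excitatory neurons were present in every library, with a summed level of 6115 to 7890 CPM over 10 genes, where CPM is a count scaled to the library's total after TMM correction. Markers of striatal projection neurons, a cell type of the neighbouring striatum, were present in every library too, and their sum over 15 genes was lowest in control 3 (487 CPM) and highest in control 2 (4126 CPM). After isolation that sum was 707 to 2999 CPM, within the control range. Yet 0 of the 15 had a log2 difference of isolated over control above 0, with a median of -0.44. None of the markers was at 0 in any library. In such bulk tissue, fewer cells of a type and less RNA per cell cannot be told apart.

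Between genes, levels are compared as FPKM, which the authors scaled for gene length. The 14 Eph receptors summed to between 153 and 172 FPKM per library and the 8 ephrins to between 77.4 and 96.8 FPKM. These sums, and the ratios below, depend on the number of genes in each class. They do not show that a receptor gene stood above a ligand gene. The ratio of summed ephrin to summed Eph receptor FPKM was 0.552 ± 0.0903 in control and 0.545 ± 0.0561 in isolated libraries (SD, n = 3). It lay lowest in control 3 (0.449) and highest in control 2 (0.618), so both extremes were controls. The ratio of summed Slit to summed Robo FPKM was 0.651 ± 0.0741 in control and 0.737 ± 0.0286 in isolated libraries. Its values were 0.635, 0.585 and 0.731 in control 1 to 3 and 0.722, 0.769 and 0.718 in isolated 1 to 3, and the groups overlapped.

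**Figure D1:**
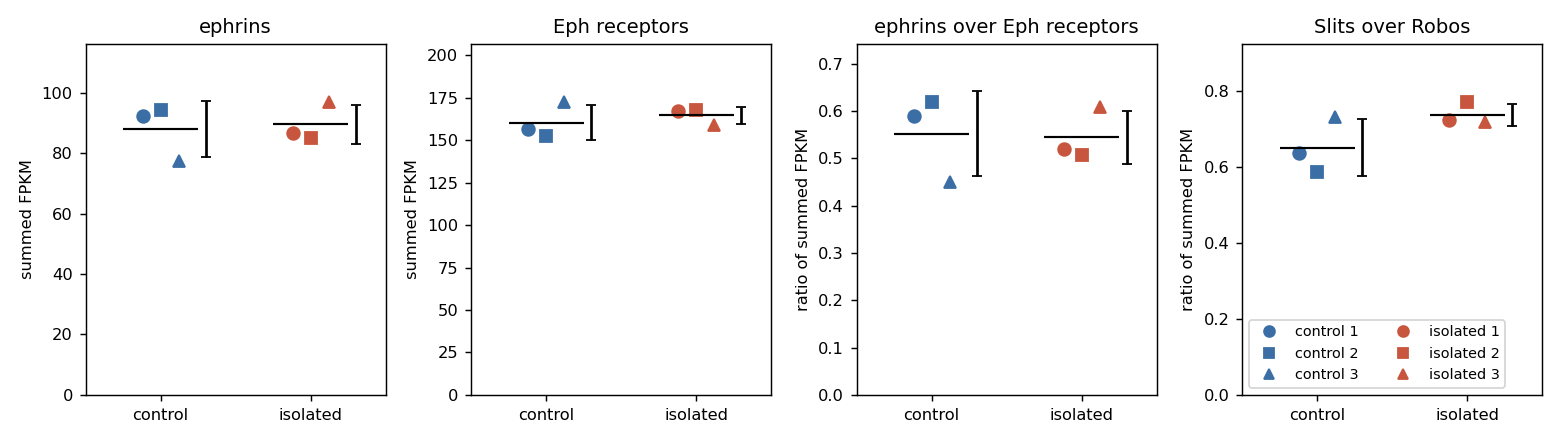
Summed FPKM of the 8 ephrins and of the 14 Eph receptors, and the ratios of summed ephrin to receptor and summed Slit to Robo FPKM, for each of the 6 libraries. Lines are group means and error bars 1 SD (n = 3); the groups overlap in all 4 panels.

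A few genes carried most of each class. Efna3 held 68.4% of the A-ephrin FPKM, Efnb3 58.1% of the B-ephrin FPKM, Epha4 49.7% of the A-receptor FPKM and Ephb6 67.2% of the B-receptor FPKM. Slit1 held 46.8% of the Slit FPKM, Robo2 53.4% of the Robo FPKM and Srgap3 74.3% of the srGAP FPKM. Epha4 is a receptor that binds both A-type and B-type ephrins, whereas Ephb6 lacks kinase activity. Epha10, the third A receptor in order of level at 11.1 FPKM, lacks it too.

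Over the 6 libraries Srgap3 averaged 53.3 FPKM, Ephb6 49.9 FPKM and Epha4 43.9 FPKM, and all other members averaged below 40 FPKM. The range of Ephb6 (35.8 to 58.7 FPKM) overlapped those of both others, while Srgap3 (48.7 to 56.6 FPKM) lay above Epha4 throughout. The lowest Epha4 value (39.4 FPKM) was above the highest value of Efna3 (34.1 FPKM), the next gene in order. Below them, ranges of neighbours in the order overlapped from Efna3 down to Epha3, so ranks there are not firm. Of the 32 members 29 averaged more than 1 FPKM and 12 more than 10 FPKM. The middle of the order included the receptors Epha7 at 17.2 FPKM, Epha5 at 9.41, Ephb1 at 12.4, Ephb3 at 7.77 and Robo1 at 6.29 FPKM. The ligands Efnb2 (14.2 FPKM), Slit1 (11.7 FPKM), Efna5 (8.85 FPKM) and Slit3 (8.42 FPKM) lay in the same span. Slit2 (4.92 FPKM), Efnb1 (4.65 FPKM) and Efna2 (3.29 FPKM) averaged less than Robo1. Low but above 1 FPKM were Epha6 (2.67 FPKM), Ephb4 (1.39 FPKM) and Epha3 (1.33 FPKM). Epha2 averaged 0.36 FPKM, Efna4 0.125 FPKM and Epha1 0.0917 FPKM.

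**Figure D2:**
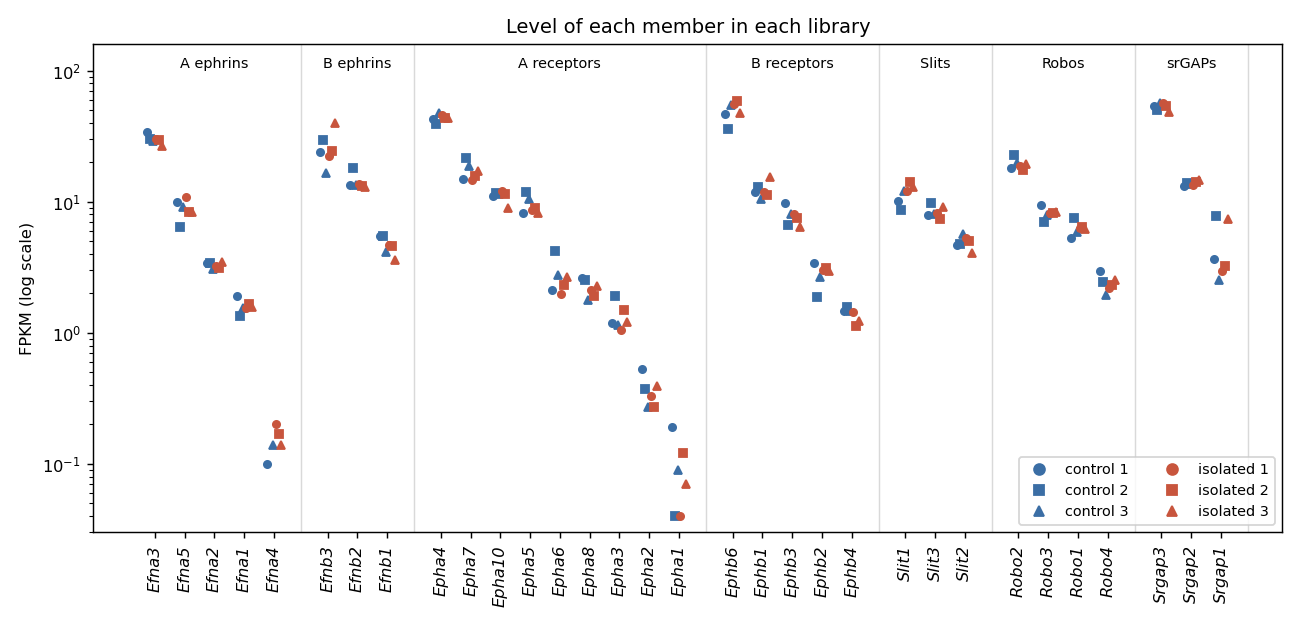
FPKM (log scale) of each of the 32 members in each library, grouped by role and ordered by mean within a role. Srgap3, Ephb6 and Epha4 stand highest; Efna4 in control 2, where it was absent from the table, is a 0 that a log axis cannot show.

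Several members are neighbours in the genome (GRCm38). Efna1, Efna3 and Efna4 lie in a row on chromosome 3 with gaps of 32.9 and 10.5 kb, yet their levels were 1.6, 30 and 0.125 FPKM. Robo4, known from endothelial cells, and Robo3 lie 2.02 kb apart on chromosome 9 and averaged 2.4 and 8.2 FPKM. Ephb2 and Epha8 lie 93.1 kb apart on chromosome 4, at 2.85 and 2.2 FPKM. An antisense gene in GENCODE covers 14.1% of the exon bases of Efna3 and another covers 10.5% of those of Efna4. Without knowledge of strand in the counting, reads of such pairs cannot be separated.

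The comparison of isolated with control libraries asks which of these genes differ after isolation. With edgeR's quasi-likelihood test, none of the 30 members with enough counts passed at an adjusted p under 0.05, where 0% of all 15169 tested genes did. Efna4 (0 to 6 expected counts per library) and Epha1 (2.2 to 11.5) were too scarce to test. At an unadjusted p under 0.05 stood 1 member, Slit1, against 3.53% of all tested genes. DESeq2 and limma-voom also called 0 members and each had 1 at an unadjusted p under 0.05. The mean was higher in isolated libraries for 10 members and lower for 20, with a median log2 difference of -0.07 beside -0.0018 over all tested genes, of which 7462 were higher and 7707 lower. The differences of the members ran from -0.39 (Epha6) to 0.33 (Slit1). Marker sums also differed: astrocyte markers summed to 4837 to 5062 CPM in the controls and 4555 to 4661 CPM after isolation, without overlap. Microglia markers summed to 371.3 to 396.7 CPM and 348.5 to 371 CPM. Those ranges nearly met, with control 1 at 371.27 CPM and isolated 3 at 370.99 CPM. All 12 oligodendrocyte markers had a higher mean after isolation, with sums of 2827 to 4722 CPM and 3681 to 6741 CPM. Of 12 deep-layer markers 9 had log2 differences above 0 (median 0.12), and of 12 upper-layer markers 2 did (median -0.2). The part of all these markers in the members' values was not tested.

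Slit1, the Slit of highest level, was measured at 54.6, 45.9 and 65.5 CPM in control 1 to 3 and at 65.2, 75.6 and 68.6 CPM in isolated 1 to 3. Control 2 was lowest and isolated 2 highest, and the groups overlapped only by control 3 and isolated 1. The log2 difference was 0.33 (SE 0.13, 95% interval 0.04 to 0.63), with an unadjusted p of 0.0295 and an adjusted p of 0.999 by edgeR. Without control 2 the difference was 0.22 and without control 3 it was 0.47. With the Drd2 level as a covariate it was 0.37 (adjusted p = 0.595). Slit1 lies on chromosome 19 from 41597824 to 41747275 (GRCm38).

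Slit2 and Slit3 had differences below 0 that did not pass. Slit2 stood at 47.5, 47.4 and 58.1 CPM in the controls and 53.9, 50.2 and 40.6 CPM after isolation. Slit3 stood at 40.1, 49.1 and 41.2 CPM and at 41.5, 37.6 and 45.5 CPM. Their log2 differences were -0.08 (95% interval -0.37 to 0.21) and -0.07 (-0.31 to 0.17), and whether they differ from that of Slit1 was not tested. Among the Robos, Robo2 stood at 148, 182 and 162 CPM in the controls and at 153, 143 and 156 CPM after isolation (log2 difference -0.13, SE 0.08). Its difference was -0.04 without control 2 and -0.19 without control 1. Robo1, Robo3 and Robo4 had differences of 0.02, 0.02 and -0.07, and every Robo interval included 0.

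Among the A receptors 7 of 8 tested members had a lower mean in isolated libraries and Epha4 was the exception, although none passed. Epha7 stood at 75.5, 104 and 91.9 CPM in the controls and at 72.6, 76.5 and 81.4 CPM after isolation (log2 difference -0.24, SE 0.11, edgeR unadjusted p = 0.0706). Epha5 stood at 64.1, 92.4 and 83.4 CPM and at 68.6, 71 and 64.1 CPM (log2 difference -0.24, SE 0.12). In both, control 2 was highest. Control 1 lay within the isolated range for Epha7 and at its lower edge for Epha5, so the groups overlapped. Without control 2 the difference of each was -0.12, and without control 1 it was -0.35 for Epha7 and -0.37 for Epha5. Both receptors bind A-type ephrins and are known from the sorting of cortical and thalamic axons.

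Epha4 was at 271, 249 and 307 CPM in the controls and 297, 279 and 276 CPM after isolation. Its log2 difference of 0.04 had a 95% interval from -0.15 to 0.24, so larger changes in either direction lie outside it. Efna3, the leading A ephrin, was at 41.1, 35.7 and 35.6 CPM and at 36.9, 35.5 and 31.7 CPM (log2 difference -0.11, SE 0.09), with overlapping groups. Its difference was -0.04 without control 1 and -0.05 without isolated 3. Epha2, the scarcest A receptor that could be tested, had a wide interval (log2 difference -0.25, 95% interval -0.92 to 0.42). That of Epha6 was wide too (log2 difference -0.39, 95% interval -0.93 to 0.15), with control 2 at 17.5 CPM and the other libraries at 8.52 to 11.8 CPM.

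Of the B receptors, Ephb4 was the single member of the 30 whose groups did not overlap, or 3.33%, where 8.85% of all tested genes were apart. Ephb4, which with ephrin-B2 marks veins and arteries apart in blood vessels, stood at 6.38, 6.81 and 6.49 CPM in the controls and at 6.3, 4.89 and 5.38 CPM after isolation. The gap between control 1 and isolated 1 was small, and the log2 difference was -0.25 (SE 0.13, edgeR unadjusted p = 0.0908). Summed over 14 genes, endothelial and pericyte markers ran from 466 to 510 CPM in the controls and from 425 to 452 CPM after isolation, also apart, and their part in the Ephb4 values was not tested. Ephb6 was at 176, 134 and 209 CPM in control 1 to 3 and at 212, 222 and 178 CPM in isolated 1 to 3, with overlapping groups. Its log2 difference was 0.24 (95% interval -0.13 to 0.61), and it was 0.09 without control 2 and 0.40 without control 3.

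None of the B ephrins passed. Efnb1 was at 18.6, 18.3 and 14.1 CPM in the controls and at 16, 15.6 and 11.9 CPM after isolation. Efnb2, the partner of Ephb4, was at 58.2, 78.2 and 59.2 CPM and at 60, 57.5 and 55.3 CPM, with control 2 alone standing out. Their log2 differences were -0.23 (SE 0.15) and -0.18 (SE 0.11), and that of Efnb2 was -0.03 without control 2. That of Efnb1 was -0.11 without isolated 3 and -0.35 without control 3. Efnb3 was at 77.4, 95 and 54 CPM and at 72.6, 79.2 and 128 CPM, with isolated 3 alone above the controls. It had a difference of 0.31 (95% interval -0.3 to 0.91), which was 0.01 without isolated 3. Leaving out control 3 gave 0.12, and leaving out control 2 gave 0.51.

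**Figure D3:**
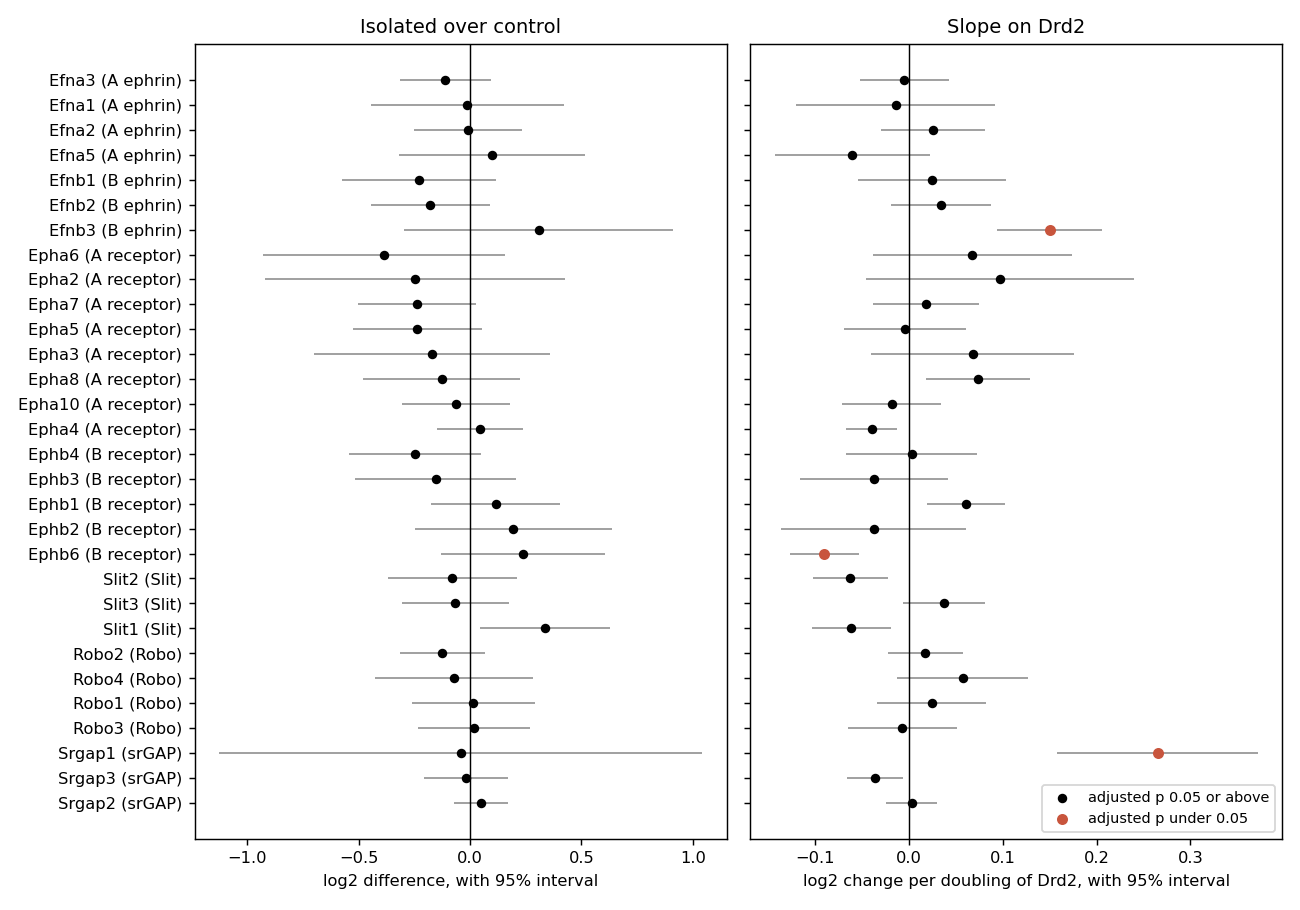
Left, log2 difference of isolated over control libraries for the 30 tested members, and right, log2 change per doubling of Drd2, each with its 95% interval from edgeR. None passed on the left; Efnb3, Srgap1 and Ephb6 (red) passed an adjusted p of 0.05 on the right.

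Over the 6 libraries the SD of log2 CPM had a median of 0.19 over the 30 members and 0.13 over all tested genes, and the signalling genes outside the families had 0.1. It was largest for Srgap1 (0.68), Efnb3 (0.42) and Epha6 (0.37) and smallest for Srgap2 (0.05). Srgap2, known for its part in the maturation of dendritic spines, held between 107 and 118 CPM throughout. Control 2 held the highest or lowest value of 17 of the 30 members (56.7%), beside 44% of all tested genes. The highest value lay in control 1 for 10 members (33.3%, beside 17.3% of all tested genes). It lay in control 2 for 10 members too (33.3%, beside 22.2%).

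The dopamine receptor gene Drd2, a marker of striatal projection neurons of the indirect pathway, stood at 0.605 CPM in control 3, 6.36 in isolated 2, 6.78 in isolated 1, 19.1 in control 1, 50.2 in isolated 3 and 68.2 in control 2. The slope of each gene on log2 Drd2 was fitted with edgeR beside the housing group, so it gives the log2 change of a gene per doubling of Drd2. Of the 30 members 2 rose with Drd2 at an adjusted p under 0.05, Efnb3 and Srgap1, where 0.903% of all tested genes did. Falling with Drd2 was 1 member, Ephb6, where 0.191% of all tested genes did. At an unadjusted p under 0.05 were 9 members, or 30%, beside 15.4% of all tested genes. The 14 other striatal markers all had slopes above 0, of which 13 passed, with a median slope of 0.57. All 10 cortical excitatory markers had slopes below 0, of which 1 passed. Of 12 markers of deep cortical layers 7 had slopes above 0, with 4 passing, and 5 had slopes below 0, with 0 passing. Of 12 upper-layer markers 6 lay above and 6 below 0, with 0 passing. Of 9 tested markers of olfactory bulb and migrating neuroblasts 8 lay above 0, with 1 passing, and 1 below. How much of the members' slopes goes with these markers was not tested.

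Srgap1, whose protein inactivates the small GTPase Cdc42 downstream of Robo, had the steepest slope of the members. Its level was 19.9 CPM in control 3, 25.2 in isolated 2, 23.2 in isolated 1, 28.5 in control 1, 56.7 in isolated 3 and 59.8 in control 2, listed by rising Drd2. The libraries of highest Drd2 stood apart from the other 4, and the highest level was 3.01 times the lowest. The slope was 0.26 (SE 0.05, 95% interval 0.16 to 0.37, edgeR adjusted p = 0.0473). Srgap3 was at 485, 448 and 512 CPM in control 1 to 3 and at 510, 486 and 432 CPM in isolated 1 to 3. Srgap2 had a slope of 0.0032 (SE 0.01), and Srgap3 one of -0.04 (SE 0.01, adjusted p = 0.251), which was -0.07 without control 3. Whether the slopes of the 3 srGAPs differ was not tested. The housing groups of Srgap1 averaged 36.1 ± 21 CPM (control) and 35 ± 18.8 CPM (isolated; SD, n = 3). The group difference was 0.54 without control 2 and -0.58 without isolated 3.

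Efnb3, a B ephrin known as a midline barrier to Epha4-bearing corticospinal axons, stood at 54 CPM in control 3, 79.2 in isolated 2, 72.6 in isolated 1, 77.4 in control 1, 128 in isolated 3 and 95 in control 2. It was lowest in the library with least Drd2, but highest in isolated 3 and not in control 2. The summed oligodendrocyte markers were likewise lowest in control 3 (2827 CPM) and highest in isolated 3 (6741 CPM), and all 12 had slopes above 0 without passing. Their part in the Efnb3 values was not tested. The slope was 0.15 (SE 0.02, 95% interval 0.09 to 0.21, edgeR adjusted p = 0.0383). Efnb1 and Efnb2 had slopes of 0.02 (SE 0.03) and 0.03 (SE 0.02) and did not pass. Efnb3 lies on chromosome 11 from 69554092 to 69561150 (GRCm38).

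Ephb6, the B receptor of highest level, went the other way. It stood at 209 CPM in control 3, 222 in isolated 2, 212 in isolated 1, 176 in control 1, 178 in isolated 3 and 134 in control 2. The 3 libraries of lowest Drd2 were all above the 3 of highest Drd2. The slope was -0.09 (SE 0.02, 95% interval -0.13 to -0.05, edgeR adjusted p = 0.0473). Ephb1, a receptor for B ephrins, had a slope of 0.06 (SE 0.02, adjusted p = 0.17) with 50.2 CPM in control 3 and 72.1 CPM in isolated 3. Without control 3 its slope was 0.12.

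These 3 calls rest on few libraries. None of the 3 passed without control 2, without isolated 1 or without isolated 2, where the adjusted p lay between 0.0578 and 0.201. Without isolated 3 Efnb3 alone passed, and without control 3 Ephb6 did not (adjusted p = 0.12). Without control 3 the slope of Srgap1 was 0.46 and that of Efnb3 0.24. All 3 kept their sign without any 1 library. All 3 passed when Ppp1r1b, another striatal marker, took the place of Drd2, as did Ephb1 (edgeR adjusted p = 0.038). That fit called 702 of the 15169 tested genes, where the Drd2 fit called 166. Ppp1r1b itself rose with Drd2 (slope 0.48, edgeR adjusted p = 0.0107), so it is not a separate check. Without the group term Srgap1 alone passed, with Efnb3 at 0.063 and Ephb6 at 0.234.

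**Figure D4:**
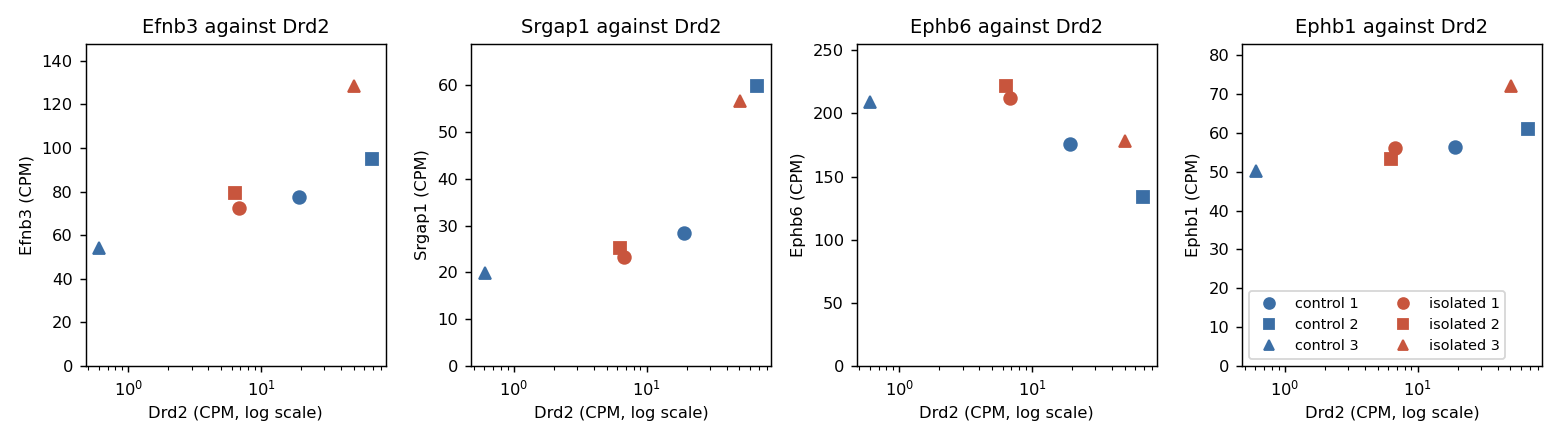
CPM of Efnb3, Srgap1, Ephb6 and Ephb1 against Drd2 CPM (log scale) in the 6 libraries. Efnb3 and Srgap1 are lowest in control 3, which has least Drd2, and Ephb6 is lowest in control 2, which has most.

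No Slit passed on the same scale. Slit1 and Slit2 both had slopes of -0.06 (SE 0.02 each, adjusted p = 0.173 and 0.148), and Slit3 one of 0.04 (SE 0.02). The slope of Slit1 was -0.04 without control 2 and that of Slit2 -0.09 without control 3. Of the Robos 3 of 4 had slopes above 0 and none an unadjusted p under 0.05. By role, 5 of 10 ligands (ephrins and Slits) and 10 of 17 receptors (Ephs and Robos) had slopes above 0. Of all 15169 tested genes 7624 did. Called were 1 ligand, Efnb3, and 1 receptor, Ephb6, in opposite directions.

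**Figure D5:**
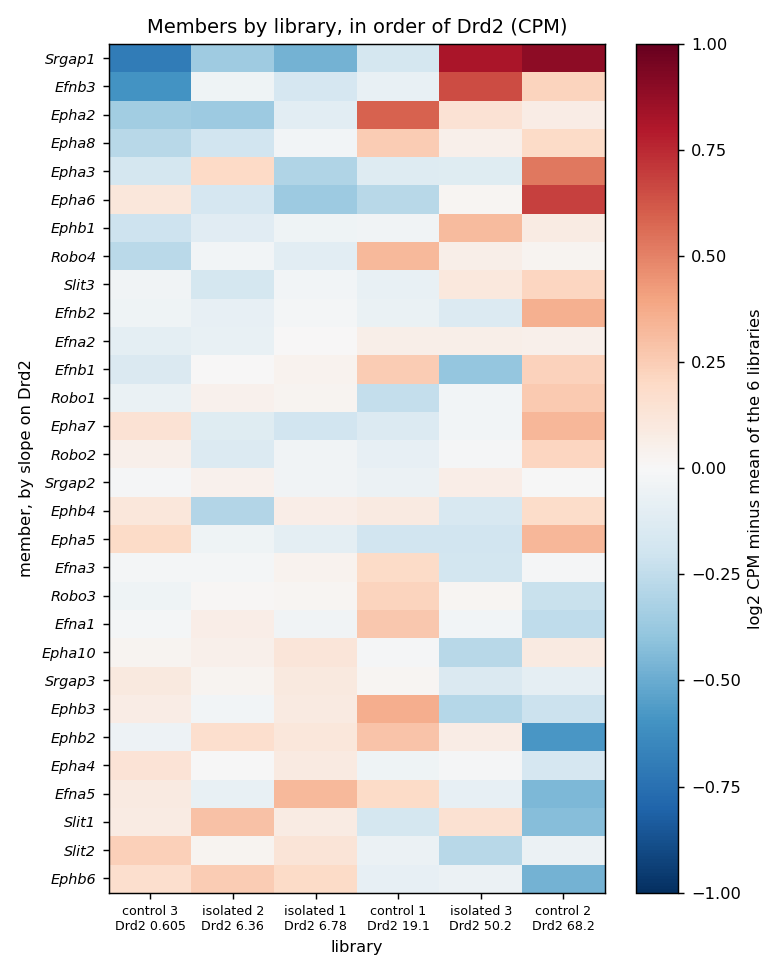
Each tested member's log2 CPM minus its mean over the 6 libraries, with libraries ordered by Drd2 CPM and members by slope on Drd2. Srgap1 and Efnb3 at the top shift from low (blue) to high (red) and Ephb6 at the bottom from high to low; Epha6 and Epha3 are highest in control 2.

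Promoters were read for the members called with Drd2. RefSeq's table (GRCm38.p6) held 30 of the 32 members, all but Efnb3 and Slit1. The 250 bases before a start in that table are shown for the steepest rising member and for the falling one. They run 5′ to 3′ on the gene's strand, to set their base composition side by side. Capitals mark GGGCGG, known as a GC box, or its reverse complement. The Ephb6 stretch lies at chr6:41605261-41605510 (plus strand) and that of Srgap1 at chr10:122047316-122047565 (minus strand). Both stretches lie inside the span of their gene (41603834 to 41620509 for Ephb6, 121780991 to 122047911 for Srgap1). Neither therefore precedes the outermost start of its gene.
Ephb6: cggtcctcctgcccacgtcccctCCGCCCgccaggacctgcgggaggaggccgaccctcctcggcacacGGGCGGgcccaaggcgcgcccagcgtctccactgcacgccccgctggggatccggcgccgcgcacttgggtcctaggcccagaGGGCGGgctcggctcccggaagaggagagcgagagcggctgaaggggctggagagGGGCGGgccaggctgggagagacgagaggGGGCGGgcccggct
Srgap1: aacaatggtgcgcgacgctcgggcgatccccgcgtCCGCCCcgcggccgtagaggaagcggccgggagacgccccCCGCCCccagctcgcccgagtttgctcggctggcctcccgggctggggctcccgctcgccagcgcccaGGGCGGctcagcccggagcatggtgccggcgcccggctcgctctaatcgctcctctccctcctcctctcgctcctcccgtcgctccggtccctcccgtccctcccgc
The GC content was 76.8% for Ephb6 and 76.4% for Srgap1. The median was 52.4% over all 32851 promoters of the table and 64% over the 35 promoters of members. Ephb6 held 4 GC boxes as printed and 1 on the other strand, and Srgap1 held 1 and 2. The GC box occurred on either strand in 32.7% of all promoters and in 25 of the 35 promoters of members. TATAAA (12.4% of all promoters) and CCAAT (33.8%) occurred in neither sequence, on either strand. A match of letters is not a binding site.

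Genes that signal around these receptors were followed as a list of 46, all of them tested, and none passed in either comparison. For housing, 2 had an unadjusted p under 0.05, beside 3.53% of all tested genes, and 3 (6.52%) had groups that did not overlap, beside 8.85%. Gpc1, a heparan sulfate proteoglycan that binds Slit, averaged 93.4 ± 8.22 CPM (control) and 108 ± 3.73 CPM (isolated; SD, n = 3; log2 difference 0.2, edgeR adjusted p = 0.999). Sdc3, a syndecan, was at 221 ± 10.1 and 199 ± 3.9 CPM (log2 difference -0.15). The adaptor gene Nck2, the kinase-pathway inhibitor gene Tsc2, the Ras inhibitor gene Rasa1 and the Rac activator gene Tiam1 had differences of 0.15, 0.07, -0.12 and -0.3. The list's median difference was -0.01, with 22 higher and 24 lower.

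With Drd2, 12 of the 46 had an unadjusted p under 0.05 (26.1%, beside 15.4% of all tested genes), 5 with slopes above and 7 below 0. Dcc, the netrin receptor that Robo can bind, was lowest in control 3 (23.8 CPM) and highest in control 2 (41.7 CPM; slope 0.12, SE 0.03, edgeR adjusted p = 0.111). Ngef, which encodes the Eph-coupled exchange factor ephexin, had a slope of 0.05 (adjusted p = 0.141) and Tiam1 one of 0.1 (adjusted p = 0.209). Slopes below 0 were smallest in p for Nell2, a ligand of Robo3 (-0.05, adjusted p = 0.109), the kinase gene Pak1 (-0.05, adjusted p = 0.187) and Gpc1 (-0.03, adjusted p = 0.22). The median slope of the list was -0.00045, beside 0.0002 over all tested genes and 0.01 over the 30 members.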

How the data were processed

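RNA of 6 libraries was sequenced on a BGISEQ-500 (read length 50 bases), per the labels' protocols. Per the submitters' processing notes the tools were HISAT, Bowtie2 and RSEM, with build mm10; their order and settings, and any use of strand, are not given in the sources used here. Per the file headers, the authors deposited an expected count and an FPKM value for each gene of each library. Genes absent from a table were set to 0. A table of the whole series with 6 columns was not used, since no label gives its codes. Entries without a symbol held at most 0.000947% of counts and were left out.

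Expected counts were rounded, filtered (filterByExpr, minimum count 10, minimum total 15; 15169 genes kept) and TMM-scaled. Isolated and control were compared with edgeR 4.0.16 (quasi-likelihood test, R 4.3.3) without covariates, and the Drd2 slope was fitted with the group as a term, on log2 CPM of Drd2 with a prior count of 2. Adjustment was by Benjamini-Hochberg over the 15169 genes (threshold 0.05). DESeq2 1.42.0, limma 3.58.1 (voom, and log2(FPKM + 1) or log2(FPKM + 0.1)), other scaling, no filter and left-out libraries were alternatives. The edgeR steps were tested on simulated data. The simulated group differences were all larger than any found for a member. That test therefore does not show whether differences of the members' size would be called. Standard errors derive from the F statistic. No library was a repeat of another (chi-square of 2.89 to 20.4 per gene for all pairs).

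Members were set by symbol. Given in every library were the 3 of smallest p in each direction for housing, those called with Drd2, the member of highest FPKM in each role, and all B ephrins and Slits. For signalling genes, the 3 of smallest p per direction were named. Members and lists were chosen with earlier results of these data known. Ephb1, Epha6 and Srgap2 were singled out after their values were seen.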

Additional observations from a re-analysis of the deposited data

How the results depend on the processing

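For housing, none of the 30 members was called in any of 16 alternatives, and DESeq2 called 1 gene of all, Fkbp5, which was higher after isolation. The log2 differences of Slit1, Efnb3, Ephb6, Epha7, Epha5, Ephb4, Efna3, Efnb1 and Robo2 kept their direction in all 16. With 1 library left out, the difference ranged from -0.025 (without control 2) to 0.13 for Epha4, from -0.17 to 0.028 for Slit2 (0.02 without control 3, 0.028 without isolated 3), from -0.14 to 0.031 for Slit3 (without control 2), and from -0.070 to 0.048 for Srgap3 (0.03 without control 3, 0.048 without isolated 3). For Srgap1 it ranged from -0.58 to 0.54, with 0.18 without isolated 1 and 0.15 without isolated 2. Without the 2 libraries of highest Drd2, Efnb2 was at 0.0015 and Epha4 at -0.0067. The cause of these turns was not tested.

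The slope on Drd2 was called for 166 genes (137 rising, 29 falling). DESeq2 called 413 (278 rising, 135 falling), Ppp1r1b in place of Drd2 702 (445 and 257), and linear Drd2 CPM 786 (481 and 305). On log2(FPKM + 1) 47 genes were falling, and without the group term 11 genes were falling and 1 member was called. With 1 library left out, 19 to 989 genes were called, 19 to 594 rising and 0 to 395 falling, with 0 to 3 members. Ephb6 was also not called with RLE size factors (adjusted p = 0.0502). The cause was not tested. On sums of CPM in place of FPKM, the mean ratio was 0.304 for ephrins over Eph receptors and 0.613 for Slits over Robos, since CPM is not scaled for gene length.

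Libraries of the same number did not vary together across the groups (correlations of 0.025, -0.269 and -0.492), so the numbers were not taken as a pairing. With the replicate number as a block, 0 genes were called for housing. For Drd2, with the block in place of the group term, 198 genes and 2 members, Efnb3 and Srgap1, were called. With 3 libraries a group, Epha2 and Epha6 had the widest intervals for housing among the receptors. Ephb4, of lower count than Epha6, had a narrower one (-0.54 to 0.05).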
